A study of Mus musculus with 16 samples.

Results

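The genes described here are 10 members and partners of the activin branch of the transforming growth factor beta family in the mouse left ventricle: the ligands Inhba, Inhbb, Gdf15, Gdf11 and Mstn, the secreted follistatin group Fst, Fstl1 and Fstl3, and the type II receptors Acvr2a and Acvr2b. They were taken by symbol, and all 10 were among the 55492 genes of the deposited table. RNA sequencing of rRNA-depleted RNA had been done on 16 left ventricles, 1 library per mouse, from male C57BL/6 mice aged 8 to 12 weeks. The controls were PKM2fl/fl mice, which carry floxed Pkm alleles and no deletion. The PKM2-/- mice lack exon 10 of Pkm, the exon particular to the M2 isoform of pyruvate kinase, in every tissue, because a CMV-driven Cre had deleted it in the germline before the Cre allele was bred out. Hearts were collected from uninjured mice (baseline, n = 2 per genotype), or 3 days after permanent ligation of the left anterior descending artery (3 d MI, n = 3 per genotype) or after sham surgery (n = 3 per genotype). The design asks how each gene responded to infarction and whether loss of PKM2 altered its level before or after injury.

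Activins are dimers of inhibin beta subunits, and Inhba and Inhbb encode the subunits of activin A and activin B. Activins, GDF11 and myostatin bind the type II receptors ACVR2A and ACVR2B, which then engage a type I receptor that phosphorylates SMAD2 and SMAD3. Follistatin, encoded by Fst, and the related Fstl3 protein wrap around these ligands and block receptor binding. Fstl1 belongs to the same sequence family but is better known as a glycoprotein released by fibroblasts and muscle, and GDF15 is a divergent, stress-induced ligand that acts through the brainstem receptor GFRAL. In the heart these proteins are known for roles in injury, fibrosis and muscle mass.

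The promoters of the members differ widely in base composition, and 4 that span the range are shown for that reason. Each is the 250 bases upstream of an annotated transcript start in RefSeq (GRCm38.p6, the mm10 build), 5′ to 3′ on the strand of the gene, with CpG dinucleotides in capitals. The Gdf15 window lies on the minus strand at chr8:70632457-70632706, that of Inhbb on the minus strand at chr1:119422249-119422498, that of Fstl3 on the plus strand at chr10:79777024-79777273 and that of Acvr2a on the plus strand at chr2:48813859-48814108.
Gdf15: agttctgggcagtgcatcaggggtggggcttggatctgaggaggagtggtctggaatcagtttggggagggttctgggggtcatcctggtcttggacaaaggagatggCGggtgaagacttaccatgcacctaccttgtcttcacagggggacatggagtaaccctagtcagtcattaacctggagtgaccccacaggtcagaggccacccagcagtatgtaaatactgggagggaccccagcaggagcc
Inhbb: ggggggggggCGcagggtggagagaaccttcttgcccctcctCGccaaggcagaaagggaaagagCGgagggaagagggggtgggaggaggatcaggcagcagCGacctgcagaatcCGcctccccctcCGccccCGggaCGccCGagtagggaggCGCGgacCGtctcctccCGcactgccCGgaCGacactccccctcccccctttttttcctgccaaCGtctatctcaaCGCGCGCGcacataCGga
Fstl3: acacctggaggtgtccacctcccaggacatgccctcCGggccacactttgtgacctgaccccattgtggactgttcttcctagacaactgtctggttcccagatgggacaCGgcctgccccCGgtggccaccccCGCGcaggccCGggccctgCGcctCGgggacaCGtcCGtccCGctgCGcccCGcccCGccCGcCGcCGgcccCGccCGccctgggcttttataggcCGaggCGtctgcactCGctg
Acvr2a: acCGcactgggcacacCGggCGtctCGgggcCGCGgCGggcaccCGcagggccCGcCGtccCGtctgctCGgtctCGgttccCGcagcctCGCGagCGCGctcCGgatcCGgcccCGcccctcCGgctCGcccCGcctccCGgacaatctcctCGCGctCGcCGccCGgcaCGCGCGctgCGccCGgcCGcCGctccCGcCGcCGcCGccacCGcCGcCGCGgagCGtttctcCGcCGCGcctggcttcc
The Gdf15 window held 1 CpG, and 18.8% of the 32851 RefSeq windows of this length held as few. The Inhbb window held 21, the Fstl3 window 22 and the Acvr2a window 49, against a median of 6, and 99.9% of all windows held 49 or fewer. Of the members not shown, Inhba and Mstn held 3 CpG each, Fstl1 16, Acvr2b 24 and Gdf11 33, and a second Gdf15 window held 6. Of the shown genes, Gdf15, Inhbb and Fstl3 rose after infarction in the results that follow and Acvr2a was not called, so the windows of the genes that rose included both CpG-poor and CpG-rich ones. RefSeq windows were matched for 9 of the 10 members, all but Fst.

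A set of 3 motifs was searched on both strands of these windows: the AP-1 site TGANTCA, the cyclic AMP response element TGACGTCA and the C/EBP-ATF element TGATGNAA. Their letters do not overlap one another in a single match. The only match among the members was an AP-1 site in the Mstn window, 170 bases before the start (chr1:53061470-53061476). Among all windows, 6.75% held the AP-1 letters, 1.55% the cyclic AMP response element and 3.45% the C/EBP-ATF element. For the other members these letters are absent from this window, which says nothing about the factors themselves.

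Library depth ranged from 20623769 to 71855101 reads assigned to genes. A ribosomal RNA gene model, CT010467.1, took 0.111% to 25.1% of those reads. It took 4.14% to 15.0% in the 5 PKM2-/- libraries from baseline and sham hearts and 0.111% to 1.39% in the 5 PKM2fl/fl ones. The targeted gene, Pkm, had 7779 to 12076 normalized counts in PKM2fl/fl and 10120 to 16113 in PKM2-/- libraries. A gene total covers both isoforms, so it does not check the deletion of exon 10. The 8 cardiomyocyte markers summed to 202552 or more normalized counts in every library, which shows heart muscle and was not used to tell ventricle from atrium. Among markers of atrial tissue, Sln had group means of 3.32 to 135.8 normalized counts, Myl7 15.4 to 298.8 and Myl4 110.4 to 543.1, each highest in a sham group, while Nppa, which stressed ventricular muscle also makes, had 1573 to 4615 before infarction and 9133 and 10667 after MI. Bmp10 was at 1.83 or less. Whether any sample held atrial tissue was not tested.

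In the uninjured heart, Fstl1 and the receptor Acvr2a were the most abundant members and the ligands were low. Levels are compared between genes as normalized counts per kilobase of exon, with exon lengths from GENCODE M39. In PKM2fl/fl baseline hearts Fstl1 stood at 228 ± 29.4 per kilobase (SD, n = 2) and Acvr2a at 139 ± 12.6. Fstl3 followed at 33.9 ± 6.75 and Acvr2b at 25.0 ± 0.534. These 4 did not overlap between neighbours. Gdf11 at 17.4 ± 8.21, Inhbb at 13.0 ± 2.73, Inhba at 8.92 ± 4.66 and Gdf15 at 6.35 ± 0.146 came next, and each overlapped the next in its range of libraries. Fst at 1.93 ± 0.336 and Mstn at 1.76 ± 1.67 were the lowest and overlapped each other. In PKM2-/- baseline hearts the order was alike, except that Acvr2b (27.6 ± 1.22) and Fstl3 (26.5 ± 1.52) stood side by side with overlapping ranges, Inhba (13.1 ± 0.850) stood above Inhbb (11.7 ± 2.74), and Mstn (1.75 ± 0.565) above Fst (1.62 ± 1.20).

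Infarction changed that order. In PKM2fl/fl hearts after MI, Fstl1 reached 1218 ± 115 per kilobase (SD, n = 3), while Acvr2a (120 ± 9.42), Fstl3 (118 ± 20.3), Inhbb (114 ± 40.8), Inhba (109 ± 33.1) and Gdf15 (60.4 ± 33.3) formed a run in which neighbours overlapped. Gdf11 (19.2 ± 4.24), Acvr2b (12.3 ± 2.05), Fst (9.18 ± 1.73) and Mstn (1.36 ± 0.221) closed the order, and of these neighbours only Acvr2b and Fst overlapped. In PKM2-/- hearts after MI, the order of means was Fstl1 (1339 ± 72.5), Inhbb (194 ± 45.5), Fstl3 (152 ± 16.8), Inhba (130 ± 24.8), Acvr2a (122 ± 3.53), Gdf15 (58.8 ± 5.52), Gdf11 (20.6 ± 1.54), Fst (18.6 ± 3.47), Acvr2b (9.14 ± 0.436) and Mstn (3.33 ± 2.30). There the neighbours from Inhbb to Acvr2a overlapped, as did Gdf11 and Fst, and the others did not.

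**Figure D1:**
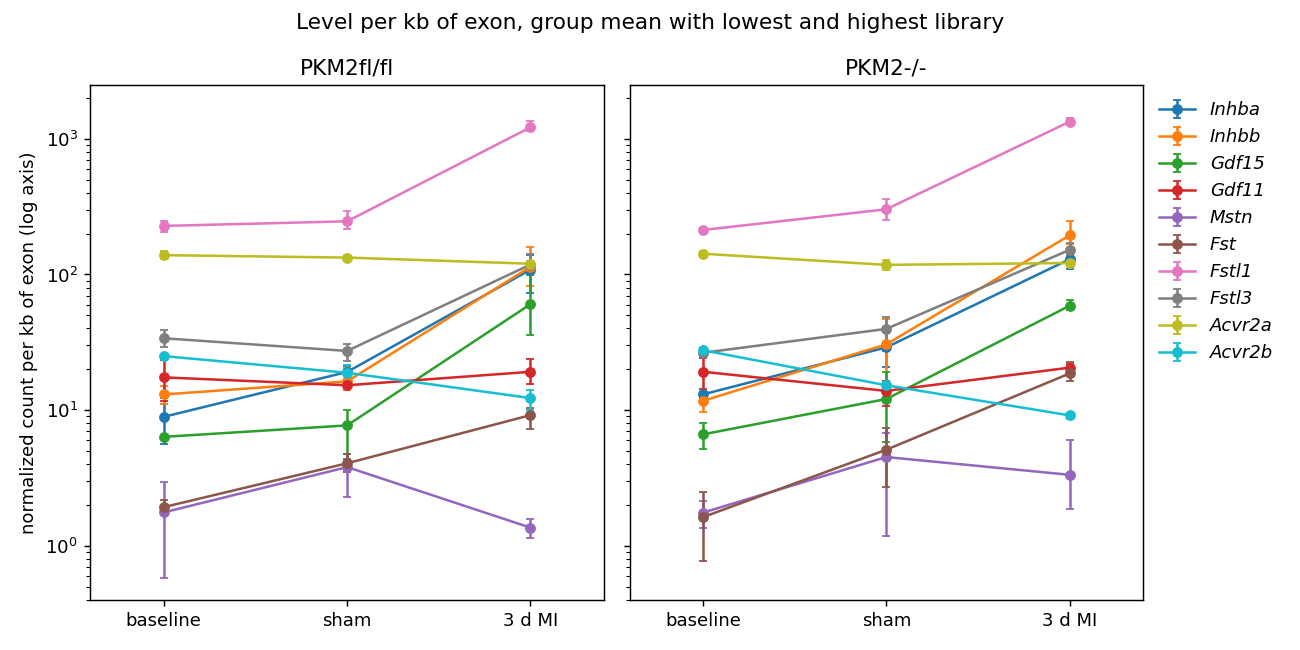
Normalized count per kilobase of exon (log axis) of the 10 genes in PKM2fl/fl (left) and PKM2-/- (right) hearts at baseline, after sham surgery and 3 days after MI; points are group means and bars run from the lowest to the highest library. Fstl1 is the highest gene in every group, and Inhba, Inhbb and Fstl3 reach the level of Acvr2a after MI.

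Of the 10 genes, 9 had a mean of at least 10 normalized counts over the 16 libraries and were tested. Mstn, with a mean of 7.79, was not. All comparisons come from 1 limma fit of log2(normalized count + 1) to the 6 groups over 20576 genes, with Benjamini-Hochberg adjustment over all of them, and a gene was called at an adjusted p under 0.05. The filter used the mean over all libraries, so a gene low in most groups could pass through the group where it is high.

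Infarction raised both activin subunits, GDF15 and the 3 follistatin-group genes and lowered Acvr2b in both genotypes. In PKM2fl/fl hearts 7 of the 9 tested members were called (6 higher and 1 lower), where 50.1% of all tested genes were called, 24.8% higher and 25.3% lower. In PKM2-/- hearts the same 7 members were called in the same directions, where 56.8% of all tested genes were called, 28.7% higher and 28.1% lower. The median log2 fold change of the 9 members was 2.10 in PKM2fl/fl and 1.96 in PKM2-/- hearts, beside 0.00 and 0.01 over all tested genes. The 6 members that rose also changed at least 2-fold in both genotypes, as 23.5% and 28.8% of all tested genes did.

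**Figure D2:**
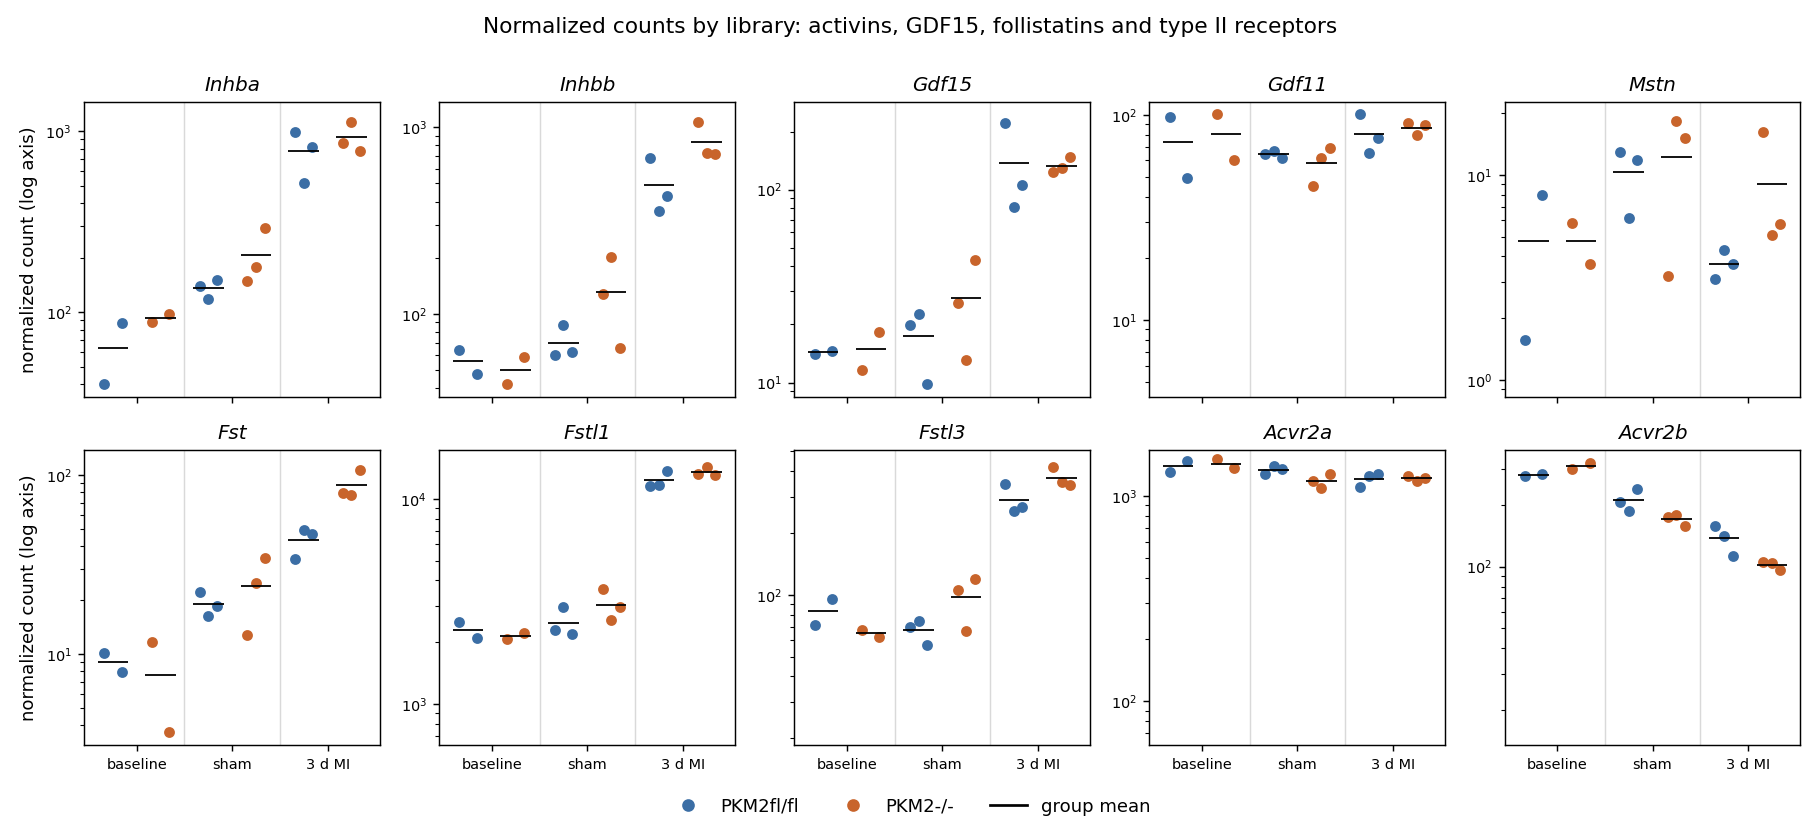
Normalized count (log axis) of each of the 10 genes in every library, by treatment; blue points are PKM2fl/fl mice, orange points PKM2-/- mice and black bars group means, with 2 mice per genotype at baseline and 3 in each other group. For Inhba, Inhbb, Gdf15, Fstl1 and Fstl3 every MI library lies above every sham library of either genotype, and for Acvr2b every MI library lies below every sham library of its own genotype.

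Inhba, the subunit of activin A, had 138.7, 118.0 and 151.0 normalized counts in the PKM2fl/fl sham libraries and 984.7, 518.7 and 813.0 after MI. In PKM2-/- hearts the counts were 147.9, 177.6 and 293.4 after sham surgery and 864.2, 1119.7 and 780.5 after MI. All MI libraries lay above all sham libraries, and the lowest of them was the second PKM2fl/fl MI library. The log2 fold change was 2.46 ± 0.30 (SE) in PKM2fl/fl hearts (limma adjusted p = 9.90e-06) and 2.20 ± 0.30 in PKM2-/- hearts (limma adjusted p = 1.64e-05), and without that library the PKM2fl/fl value was 2.72.

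Inhbb, the subunit of activin B, rose from 60.5, 87.3 and 62.3 normalized counts to 687.9, 353.6 and 428.0 in PKM2fl/fl hearts. It rose from 127.0, 201.1 and 65.8 to 1062.0, 725.3 and 721.3 in PKM2-/- hearts. Every PKM2-/- MI library lay above every PKM2fl/fl MI library, while 1 of the 3 PKM2-/- sham libraries lay within the range of the PKM2fl/fl sham libraries. The log2 fold change with MI was 2.75 ± 0.34 in PKM2fl/fl (limma adjusted p = 1.20e-05) and 2.78 ± 0.34 in PKM2-/- hearts (limma adjusted p = 6.88e-06).

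Gdf15, the stress-induced ligand, was scarce in baseline and sham hearts, with 10 to 40 reads per library, beside 76 to 203 after MI. In PKM2fl/fl hearts it went from 20.0, 22.6 and 9.8 normalized counts after sham surgery to 222.6, 81.4 and 106.1 after MI, and in PKM2-/- hearts from 25.7, 13.1 and 43.2 to 123.2, 128.9 and 147.1. The PKM2fl/fl MI libraries differed among themselves by more than the PKM2-/- ones, with the first of them standing highest of all 6. The log2 fold change was 2.84 ± 0.43 (limma adjusted p = 7.50e-05) in PKM2fl/fl and 2.39 ± 0.43 (limma adjusted p = 0.000246) in PKM2-/- hearts. Leaving out the first PKM2fl/fl MI library gave 2.43. Of the Gdf15 exon bases, 17.3% are shared with Gm34154 on the opposite strand.

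Gdf11, a close relative of myostatin, did not pass the test in either genotype. Its sham libraries held 64.6, 66.7 and 61.8 normalized counts in PKM2fl/fl and 45.0, 61.4 and 69.0 in PKM2-/- hearts. After MI they held 100.5, 65.4 and 76.8 in PKM2fl/fl and 91.6, 79.4 and 89.4 in PKM2-/- hearts. The PKM2fl/fl groups overlapped and the PKM2-/- groups did not, with log2 fold changes of 0.30 (95% interval -0.28 to 0.88) and 0.58 (0.00 to 1.16). Scaling to the total count in place of the deposited scaling gave a called change of 1.09 in PKM2-/- hearts, a scaling that itself moved the median of all tested genes by 0.52 there.

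Mstn, which encodes myostatin, an inhibitor of muscle growth made mainly by skeletal muscle, stayed at 18.3 normalized counts or fewer in every library, which was 2 to 24 reads. After sham surgery it had 12.9, 6.2 and 11.8 normalized counts in PKM2fl/fl and 3.2, 18.3 and 15.1 in PKM2-/- hearts, and after MI 3.1, 4.3 and 3.7 and then 16.2, 5.1 and 5.8. The PKM2fl/fl groups did not overlap and the PKM2-/- groups did. Without the filter on low values its log2 fold change was -1.22 in PKM2fl/fl hearts (limma adjusted p = 0.248), so no difference was detectable at this depth.

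Fstl1 rose with the smallest standard error of the 6 members that rose. Its normalized counts rose from 2287, 2977 and 2201 to 11546, 11681 and 13621 in PKM2fl/fl hearts, and from 3620, 2558 and 2981 to 13160, 14342 and 13005 in PKM2-/- hearts. The MI libraries of both genotypes shared 1 narrow range. The log2 fold changes were 2.31 ± 0.14 (limma adjusted p = 3.97e-08) and 2.16 ± 0.14 (limma adjusted p = 3.60e-08).

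Fstl3, a follistatin-type antagonist without heparin-binding capacity, rose from 69.3, 74.9 and 56.9 normalized counts to 347.8, 257.2 and 267.1 in PKM2fl/fl hearts and from 106.1, 66.6 and 119.7 to 419.9, 355.0 and 343.3 in PKM2-/- hearts. No sham library of either genotype reached an MI library. The log2 fold changes were 2.10 ± 0.21 (limma adjusted p = 2.26e-06) and 1.96 ± 0.21 (limma adjusted p = 2.53e-06). Of the Fstl3 exon bases, 47.1% are shared with Prss57 on the opposite strand, the library kit does not mark strand, and Prss57 rose too, by 2.14 ± 0.26 in PKM2fl/fl (limma adjusted p = 1.20e-05) and 1.90 ± 0.26 in PKM2-/- hearts (limma adjusted p = 2.23e-05). Reads of the pair in the shared part cannot be told apart.

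Fst, the follistatin gene itself, was the scarcest member that passed the filter, at 2 to 122 reads per library. In PKM2fl/fl hearts it had 22.3, 16.4 and 18.6 normalized counts after sham surgery and 34.0, 49.3 and 46.6 after MI. In PKM2-/- hearts it had 12.9, 24.8 and 34.5 and then 79.4, 77.5 and 106.8. The MI libraries of the 2 genotypes did not overlap, and in PKM2fl/fl hearts the highest sham and lowest MI libraries were 22.3 and 34.0. The log2 fold change was 1.13 ± 0.40 (limma adjusted p = 0.0272) in PKM2fl/fl and 1.91 ± 0.40 (limma adjusted p = 0.000753) in PKM2-/- hearts. The PKM2fl/fl call was lost, at 1.03 to 1.12, when replicate 2 or 3 of that genotype's sham or MI libraries was left out, and also without the filter (1.13) and with total count scaling (0.96).

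The type II receptors parted. Acvr2b fell from 206.8, 185.8 and 240.2 normalized counts to 157.7, 141.5 and 112.5 in PKM2fl/fl hearts and from 175.2, 178.9 and 157.5 to 105.4, 104.8 and 96.7 in PKM2-/- hearts. The highest MI library, at 157.7, was just above the lowest PKM2-/- sham library and below every PKM2fl/fl one. The log2 fold change was -0.62 ± 0.15 (limma adjusted p = 0.00224) in PKM2fl/fl and -0.73 ± 0.15 (limma adjusted p = 0.000514) in PKM2-/- hearts. With total count scaling the values were -0.80 and -0.22 and neither was called. That scaling itself moved the median of all tested genes by -0.18 and 0.52. Of the Acvr2b exon bases, 13.1% are shared with 4930516B21Rik on the opposite strand, which fell too, with log2 fold changes of -1.56 (limma adjusted p = 0.00578) and -1.41 (limma adjusted p = 0.00918).

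Acvr2a, the more abundant of the receptors, held 1281, 1394 and 1358 normalized counts after sham surgery and 1102, 1256 and 1276 after MI in PKM2fl/fl hearts. In PKM2-/- hearts it held 1183, 1093 and 1287 and then 1260, 1189 and 1231. The groups overlapped in PKM2-/- hearts, while in PKM2fl/fl hearts the highest MI library (1276) was just under the lowest sham library (1281). The log2 fold changes were -0.15 (95% interval -0.35 to 0.05) and 0.05 (-0.15 to 0.25), and Orc4 shares 30.5% of the Acvr2a exon bases from the opposite strand.

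**Figure D3:**
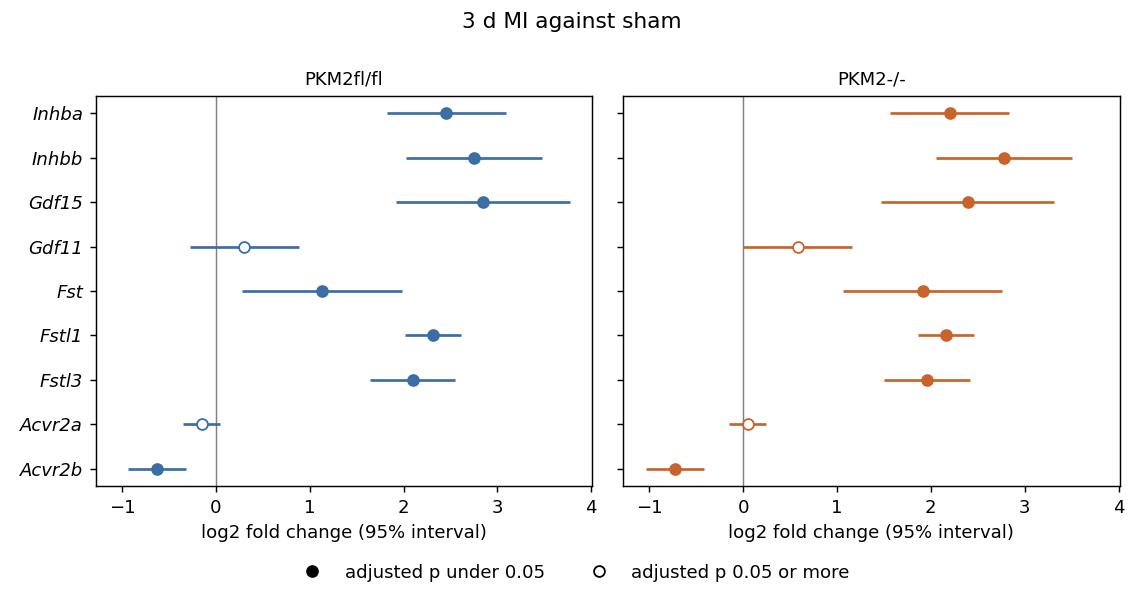
Log2 fold change of 3 d MI against sham for the 9 tested members in PKM2fl/fl (left) and PKM2-/- (right) hearts, with 95% intervals from the limma fit; filled points had an adjusted p under 0.05. Inhba, Inhbb, Gdf15, Fst, Fstl1 and Fstl3 lie to the right of 0 and Acvr2b to the left in both genotypes, while Gdf11 and Acvr2a are open.

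The cell makeup of the tissue moved at the same time. The 8 cardiomyocyte markers summed to 1062729 to 1196174 normalized counts in PKM2fl/fl sham and 202552 to 471165 in PKM2fl/fl MI libraries, and to 969017 to 1163862 and 210244 to 288061 in PKM2-/- libraries. Of these markers 7 of 8 fell in PKM2fl/fl and 8 of 8 in PKM2-/- hearts. The summed fibroblast markers were 4.43 and 4.65 times the sham mean after MI, the myofibroblast markers 11.5 and 8.17 times and the macrophage and monocyte markers 3.29 and 3.60 times. All 7 macrophage and monocyte markers, all 5 tested myofibroblast markers and 5 of 7 fibroblast markers rose in both genotypes. Of the fibroblast markers 1 fell in each genotype, and the median log2 fold changes of the 7 were 0.70 and 0.84. After MI their sum was mostly Col1a1, Col1a2 and Col3a1. Ratios of MI to sham means for the members, on the same scale, were 4.94 and 4.42 for Fstl1, 4.34 and 3.82 for Fstl3, 5.68 and 4.47 for Inhba, 6.997 and 6.37 for Inhbb, 7.83 and 4.87 for Gdf15, 2.26 and 3.65 for Fst and 0.651 and 0.600 for Acvr2b. In whole tissue, fewer cells of a type and less RNA per cell cannot be told apart, and the part of the cell makeup in these changes was not tested.

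The genes whose levels ran most nearly parallel to each responding member were found by Pearson correlation of log2(normalized count + 1) over the 16 libraries, which share treatment, depth and cell makeup, so the values only describe these libraries. For Inhba they were Gm48444 (r = 0.995), Asns (0.978) and Lypd1 (0.976). Gm48444 is annotated on the opposite strand with a span that overlaps that of Inhba by 6240 bases in GENCODE M39, where no shared exon bases were found. Its mean was 92.7 ± 17.4 normalized counts (SD, n = 3) in PKM2fl/fl sham and 579.7 ± 187.0 in PKM2fl/fl MI libraries. The annotation used for the counts is not given, and whether reads of Gm48444 and Inhba were mixed was not tested. For Inhbb the nearest were Itgal (0.987), Gpsm3 (0.984) and Csf2ra (0.983), and for Gdf15 they were Serpinf1 (0.983), Cavin3 (0.980) and H13 (0.980). Fst ran with Tlr7 (0.945), Tardbp (0.944) and Tlr8 (0.943), at lower values than the other responding members. Fstl1 ran with Col6a3 (0.997), Mrc2 (0.996) and Loxl2 (0.995), and Fstl3 with its overlapping partner Prss57 (0.990), Cavin3 (0.987) and Loxl1 (0.985). Acvr2b, the member that fell, ran with Slc26a10 (0.978), Ano1 (0.972) and Tjp1 (0.970).

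Of 11 other ligands listed for the branch, 4 passed the filter, and 2 of them fell and none rose in either genotype. Inha, the inhibin alpha subunit that pairs with a beta subunit to form an activin antagonist, fell by 1.25 on the log2 scale in PKM2fl/fl hearts (limma adjusted p = 0.00115) and by 1.70 in PKM2-/- hearts (limma adjusted p = 6.22e-05), from a mean of 109 to 47.2 and from 115 to 35.4 normalized counts. Gdf10 fell by 1.76 and by 1.50 (limma adjusted p = 0.00174 and 0.00463). Lefty1 and Gdf1 were not called. Inhbc, Inhbe, Nodal, Gdf9, Bmp10, Lefty2 and Gdf3 were too low to be tested. Of these, Gdf3 had means of 1.96 normalized counts after sham surgery and 12.3 after MI in PKM2fl/fl hearts, and 1.43 and 6.78 in PKM2-/- hearts.

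Proteases that cut the prodomains of these ligands moved both ways, with 2 of 6 higher and 1 lower in PKM2fl/fl and 3 higher and 2 lower in PKM2-/- hearts. Bmp1, which frees GDF11 and myostatin from their prodomains, rose by 1.50 ± 0.10 and 1.70 ± 0.10 (limma adjusted p = 5.07e-08 and 1.88e-08), and the related Tll1 by 0.99 ± 0.31 and 1.83 ± 0.31. Pcsk6, a proprotein convertase, fell, with log2 fold changes of -0.76 and -1.38. Furin was not called, at 0.23 ± 0.15 and 0.29 ± 0.15.

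Antagonists outside the 3 follistatin-group members mostly did not rise. Of 8 tested of 11 listed, 1 rose and 4 fell in PKM2fl/fl hearts and 1 rose and 3 fell in PKM2-/- hearts, with median log2 fold changes of -0.71 and -0.49. Wfikkn2, which binds GDF11 and myostatin, fell, with log2 fold changes of -1.06 and -1.93, as did Fstl4 (-2.20 and -2.12) and Igsf1 (-1.38 and -1.58).

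Of 8 type I receptors and co-receptors tested of 12 listed, 3 rose and 1 fell in PKM2fl/fl and 3 rose and 3 fell in PKM2-/- hearts. Tgfbr1, the TGF beta type I receptor, rose by 1.15 ± 0.14 and 1.44 ± 0.14 (limma adjusted p = 1.38e-05 and 1.26e-06) and Acvr1 by 0.50 ± 0.10 and 0.44 ± 0.10. Tgfbr3, the co-receptor betaglycan, through which inhibin binds type II receptors, fell by 0.64 in both genotypes. Acvrl1 rose by 0.32 ± 0.10 in PKM2fl/fl hearts and was not called in PKM2-/- hearts, at 0.04 ± 0.10. Gfral, the receptor of GDF15, had mean normalized counts between 0 and 1.06 in the 6 groups.

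Among SMAD proteins and their regulators, 7 of 11 tested of 12 listed rose and 1 fell in PKM2fl/fl hearts, and 5 rose and 2 fell in PKM2-/- hearts, with medians of 0.32 and 0.19. Pmepa1, a target of the pathway that restrains SMAD2 and SMAD3, rose by 1.27 ± 0.12 and 1.02 ± 0.12 (limma adjusted p = 8.43e-07 and 3.40e-06). Skil, a SMAD co-repressor, rose by 0.88 ± 0.16 and 0.66 ± 0.16, and Smad3 by 0.66 ± 0.11 and 0.38 ± 0.11. Ski rose by 0.44 ± 0.08 in PKM2fl/fl hearts and was not called in PKM2-/- hearts, at 0.13 ± 0.08.

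Genes of the integrated stress response and of p53, which are known to induce Gdf15, were divided. Of 12 listed and tested, 4 rose and 2 fell in PKM2fl/fl and 4 rose and 3 fell in PKM2-/- hearts. Asns, asparagine synthetase, rose by 1.97 ± 0.21 and 1.59 ± 0.21 (limma adjusted p = 3.04e-06 and 1.24e-05), Sesn2 by 1.30 ± 0.23 and 1.34 ± 0.23, and Trp53 by 1.11 ± 0.12 and 1.01 ± 0.12. Ddit3, which encodes the stress factor CHOP, fell, with log2 fold changes of -0.59 and -0.77. In the test of the difference between the genotypes' responses, limma called no tested gene of these 6 lists.

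**Figure D4:**
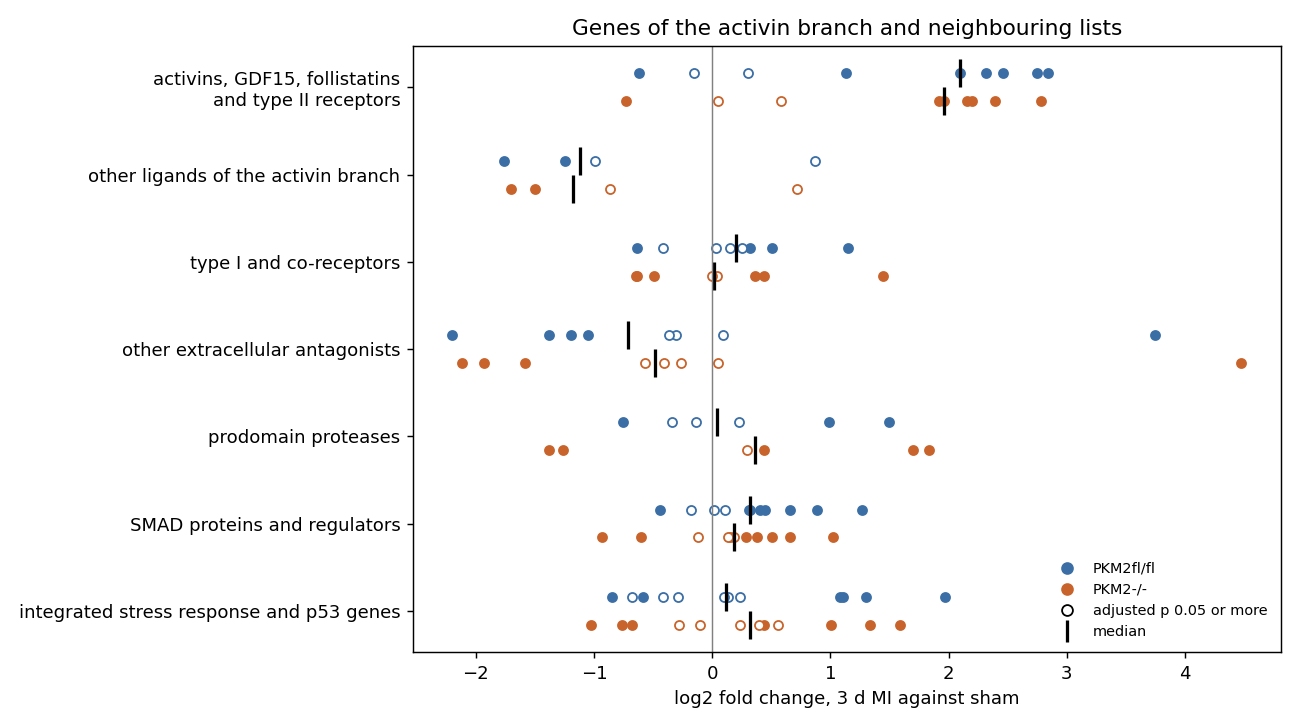
Log2 fold change of 3 d MI against sham for the 9 tested members (top row) and the tested genes of 6 lists, 1 point per gene, blue for PKM2fl/fl and orange for PKM2-/- hearts; open points had an adjusted p of 0.05 or more and black bars are list medians. The median of the members is 2.10 and 1.96, and that of the other antagonists is -0.71 and -0.49.

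Surgery without infarction moved 3 members. Over both genotypes, 3 of 9 were called in sham against baseline (2 higher and 1 lower), where 6.54% of all tested genes were called, 4.52% higher and 2.02% lower. This comparison shares its sham libraries with those of MI against sham. Inhba had 40.0 and 86.9 normalized counts at baseline in PKM2fl/fl and 88.6 and 97.1 in PKM2-/- hearts, and all 6 sham libraries (118.0 to 293.4) were higher, with a log2 fold change of 1.13 ± 0.23 (limma adjusted p = 0.00928). Without the first PKM2fl/fl baseline library the change was 0.86 and was not called. Acvr2b had 275.5 and 284.0 at baseline in PKM2fl/fl and 299.5 and 318.9 in PKM2-/- hearts, and all 6 sham libraries (157.5 to 240.2) were lower, with a change of -0.63 ± 0.12 (limma adjusted p = 0.00410). It was not called with total count scaling, at -0.55, where the median of all tested genes moved by 0.096.

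Fst rose from 10.2 and 8.0 normalized counts in PKM2fl/fl and 11.7 and 3.7 in PKM2-/- baseline hearts, by 1.30 ± 0.31 (limma adjusted p = 0.0219). These are counts of few reads, and the call was lost in 3 alternative settings and in leaving out any 1 of 4 libraries, with values of 0.94 to 1.38 in these fits. Inhbb was not called, at 0.78 ± 0.27 (limma adjusted p = 0.105), with 64.4 and 47.8 normalized counts in PKM2fl/fl and 42.0 and 58.6 in PKM2-/- baseline hearts. All 5 neutrophil markers, all 7 macrophage and monocyte markers and 3 of 4 tested atrial markers rose in the same comparison, as did 4 of 7 fibroblast and 2 of 5 tested myofibroblast markers. In it 3 of 5 pericyte and smooth muscle and 2 of 6 endothelial markers fell, and no cardiomyocyte marker was called. The summed neutrophil markers were at 82.4 to 187.1 at baseline and 223.5 to 1311.9 after sham surgery, and the part of any of these cell types in the changes was not tested.

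Loss of PKM2 gave no called difference in any member. At baseline none of the 9 was called or reached an unadjusted p under 0.05, where 0.00972% of all tested genes were called by limma. After sham surgery none was called and 2 reached an unadjusted p under 0.05, again beside 0.00972% of all genes called. At that unadjusted level stood 2047 of the 20576 tested genes. After MI none was called and 3 reached an unadjusted p under 0.05, beside 0.967% of all genes called and 3492 at the unadjusted level. DESeq2 on recovered reads called 0, 0 and 1 member, and edgeR 0, 0 and 0. Over all genes DESeq2 called 19, 275 and 1043.

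At baseline the 9 log2 differences ran from -0.38 (Fst, 95% interval -1.42 to 0.66) to 0.64 (Inhba, -0.13 to 1.42), so differences of these sizes could not be resolved with 2 mice per genotype. The narrowest interval was that of Acvr2a, -0.21 to 0.28. Gdf15 had 14.1 and 14.6 normalized counts in PKM2fl/fl and 11.7 and 18.3 in PKM2-/- hearts, and Fstl1 had 2511 and 2091 against 2066 and 2228.

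After sham surgery the differences with an unadjusted p under 0.05 were those of Inhbb, at 0.78 (95% interval 0.05 to 1.50, limma adjusted p = 0.462), and Fstl3, at 0.50 (0.04 to 0.96, limma adjusted p = 0.449). In both genes 2 of 3 PKM2-/- libraries lay above every PKM2fl/fl library and 1 lay among them. The Inhbb difference was 0.40 without the second PKM2-/- sham library and 1.20 without the third.

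After MI they were those of Inhbb, Fst and Acvr2b. In each of these genes, and in Mstn, which was not tested, the genotypes did not overlap. The share of all genes without overlap was not counted. Inhbb was higher in PKM2-/- hearts by 0.80 (95% interval 0.08 to 1.53, limma adjusted p = 0.245) and Fst by 1.01 (0.16 to 1.85, limma adjusted p = 0.214), which in means was 836.2 against 489.8 and 87.9 against 43.3 normalized counts. DESeq2 called the Fst difference, at 1.00. Acvr2b was lower by 0.41 (-0.72 to -0.10, limma adjusted p = 0.168), or 102.3 ± 4.88 against 137.2 ± 22.9 (SD, n = 3). Without the third PKM2fl/fl MI library that difference was -0.54 and was called, in a fit that called 2271 genes. With total count scaling the Acvr2b difference was -0.04, a scaling that itself moved the median of all tested genes by 0.36 there.

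**Figure D5:**
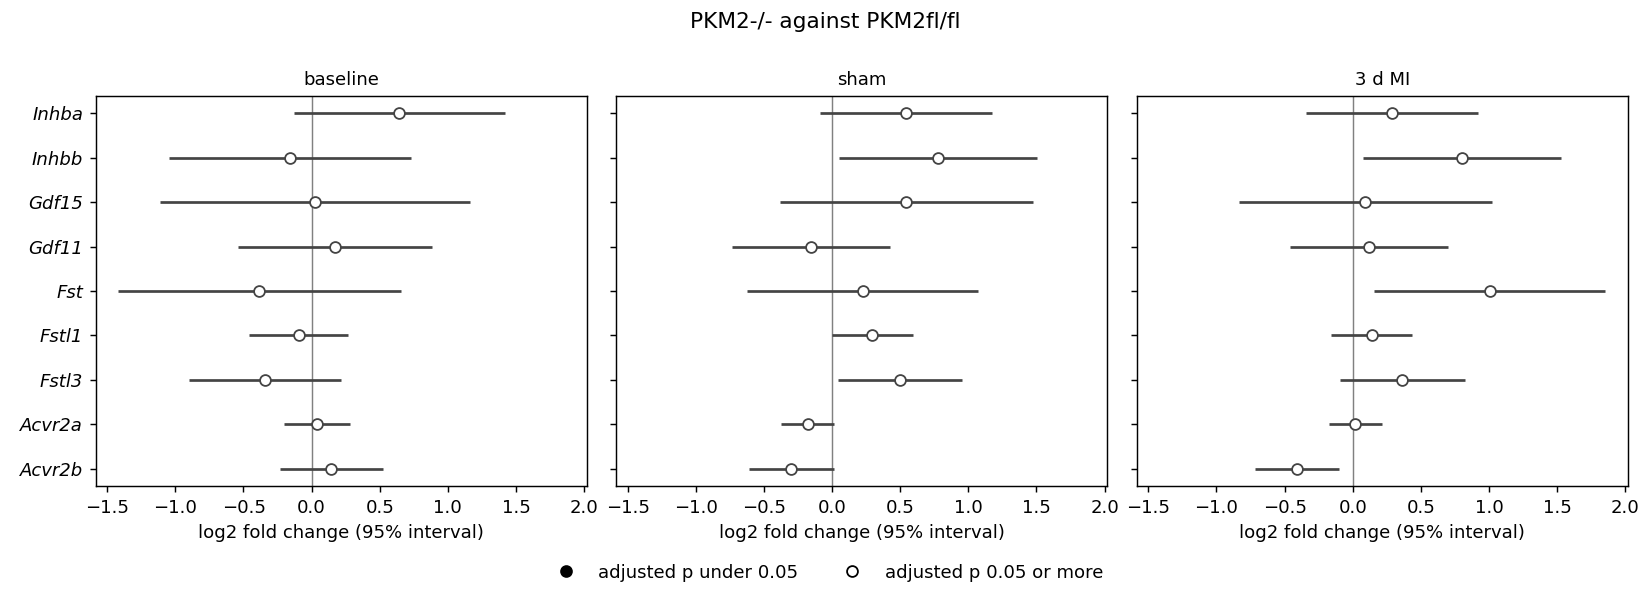
Log2 fold change of PKM2-/- against PKM2fl/fl hearts for the 9 tested members at baseline, after sham surgery and 3 days after MI, with 95% intervals from the limma fit. All points are open, since no adjusted p was under 0.05; Inhbb lies at 0.78 and 0.80 after sham surgery and MI and Acvr2b goes from 0.14 at baseline to -0.30 and -0.41.

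The share of reads on the ribosomal RNA model moved with genotype at baseline (0.256% and 0.494% in PKM2fl/fl, 7.63% and 8.25% in PKM2-/-) and after sham surgery, and less so after MI (1.72% to 25.1% and 2.13% to 17.4%). Summed neutrophil markers after MI were 1232 to 2138 in PKM2fl/fl and 3527 to 4521 in PKM2-/- libraries, but none of the 5 markers was called between the genotypes. Summed cardiomyocyte markers overlapped between the genotypes. The part of the ribosomal RNA share or of these cell types in the genotype differences was not tested. Among the 6 lists, 3 genes were called between the genotypes after MI, and they are named here because they were seen to pass: Ddit4, an inhibitor of mTOR signalling induced by stress, was higher in PKM2-/- hearts by 1.58 ± 0.30 (limma adjusted p = 0.0319), Pcsk5, a proprotein convertase, was higher by 0.53 ± 0.12 (limma adjusted p = 0.0497), and Bambi, a decoy receptor, was lower, at -0.81 ± 0.16 (limma adjusted p = 0.0341).

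The response to MI itself did not differ detectably between genotypes. In the test of the difference between the 2 responses, limma called 0 of 9 members and 0 reached an unadjusted p under 0.05, edgeR and DESeq2 also called 0, and 0% of all tested genes were called by limma. The interval of the difference was narrowest among the 6 members that rose for Fstl1, at -0.15 (95% interval -0.57 to 0.27). It was wide for Gdf15, at -0.45 (-1.76 to 0.86), and for Fst, at 0.78 (-0.42 to 1.98), so these data bound the Gdf15 and Fst differences only loosely.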

How the data were processed

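RNA was sequenced from 16 mouse left ventricles, paired-end, after rRNA depletion and a library kit (NEBNext Ultra II RNA) that does not mark strand. Per the labels and methods, the authors trimmed reads with PRINSEQ, aligned them with HISAT2 to mm10, counted them per gene with featureCounts and normalized them with DESeq2. Versions, annotation and strand setting are not given in the sources used here. The deposited signal values are read counts divided by each library's DESeq2 size factor, and 100% of them came out as whole reads (tolerance 0.01) once multiplied back. The deposited table also holds the authors' own comparison of 2 groups (a log2 fold change, scores for its error and statistic, and p-values), which was not used.

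Here log2(normalized count + 1) was fitted for 20576 genes with a mean of at least 10 (limma 3.58.1, trend, R 4.3.3). The fit had 6 group means, and p-values were adjusted over all genes. It was tested on simulated data. Alternatives were another pseudocount (0.1), no filter, other scalings, edgeR 4.0.16 and DESeq2 1.42.0 on recovered reads, only the groups compared, a replicate block, a 2-fold minimum and leaving out each library. Each library is its own mouse, and the labels do not say that replicate numbers pair animals. The members and lists were chosen with earlier results of these data known. The text names all 10 members, the 4 genes of each list with the smallest p in PKM2fl/fl MI against sham, and the 3 genes most correlated with each responding member. A listed antagonist that rose is in the counts and medians of its list and is otherwise not reported here. Positions and promoters are RefSeq GRCm38.p6, and exon lengths GENCODE M39, which was made on a later build and gives lengths and gene overlaps only. Intervals cover the spread between mice within the fit.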

Additional observations from a re-analysis of the deposited data

Results flagged for a closer look

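The libraries of the 2 genotypes stood in opposite order in uninjured and operated hearts for Acvr2b, the activin type IIB receptor. The baseline log2 difference was 0.14, with a 95% interval of -0.24 to 0.52. The share of all genes ordered in this way was not counted. At baseline both PKM2-/- libraries (299.5 and 318.9 normalized counts) lay above both PKM2fl/fl libraries (275.5 and 284.0). After sham surgery the PKM2-/- libraries (157.5 to 178.9) lay below every PKM2fl/fl library (185.8 to 240.2), and after MI (96.7 to 105.4) they again lay below every one (112.5 to 157.7). Tests of the change, chosen after seeing these values and fitted over all 20576 genes with limma, gave a genotype difference after sham surgery minus that at baseline of -0.44 ± 0.23 (SE, unadjusted p = 0.0727, limma adjusted p = 0.837) and after MI minus that at baseline of -0.55 ± 0.23 (unadjusted p = 0.0296, limma adjusted p = 0.477). Neither passed the adjustment. The same tests gave Fstl3 0.84 ± 0.34 after sham surgery minus baseline (unadjusted p = 0.0254, limma adjusted p = 0.715) and Fst 1.39 ± 0.63 after MI minus baseline (unadjusted p = 0.0431, limma adjusted p = 0.513). Over all genes, limma called 0 in the first test and 5 in the second, and 1294 and 1928 had an unadjusted p under 0.05. Both tests share the 4 baseline libraries. No group of libraries was large enough for a test of single outlying libraries.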

How the results depend on the processing

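The counts of members called after MI (7 in each genotype) held within 1.5 times in every alternative run, at 5 to 7. Of 1000 other values for single members, 969 kept their direction and their side of the threshold. These values cover every tested member for MI against sham and sham against baseline. Between genotypes and for the difference between responses they cover only chosen members. Total count scaling shifts the median of all tested genes by -0.18 in PKM2fl/fl and 0.52 in PKM2-/- MI against sham, by 0.67 in the difference between these responses and by -0.59, -0.33 and 0.36 between genotypes at baseline, after sham surgery and after MI. Under it the genotype difference of Fst after sham surgery was -0.087, and the difference between responses was 0.22 for Gdf15 and 0.54 for Fstl1. Taken without the shift, each was opposite to the reported sign. Relative to the shifted median each kept the reported direction, with Fst above -0.33 and Gdf15 and Fstl1 below 0.67. Total count scaling called 6001 genes for MI in PKM2fl/fl hearts, 44, 113 and 121 between genotypes at baseline, after sham surgery and after MI, 54 for the difference between responses and 662 for sham against baseline. The cause was not tested.

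Other tools and filters moved counts over all genes between genotypes. EdgeR without a filter called 214, 716 and 1710 genes at baseline, after sham surgery and after MI, 538 for the difference between responses and 2376 for sham against baseline, and among the members it called 2 after sham surgery (Inhba and Inhbb) and 1 after MI (Inhbb). EdgeR with the filter called 1 gene at baseline. DESeq2 called 19, 275 and 1043 genes between genotypes and 60 for the difference between responses, and 1 member after MI (Fst). A pseudocount of 0.1 gave 9 genes at baseline, no filter gave 0 after sham surgery, and fitting only the groups compared gave 42, 9 and 6. Asking for at least a 2-fold change as well left 4832 and 5923 genes for MI, 1 and 85 between genotypes after sham surgery and after MI and 466 for sham against baseline.

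With a replicate block the counts over all genes between genotypes were 1 at baseline, 0 after sham surgery and 75 after MI, and Fst lost its call in sham against baseline (1.17). Deviations of same-numbered libraries from their group means had correlations of -0.09 to 0.13. With 2 or 3 libraries per group these cannot show whether the numbers pair animals, and the labels do not say.

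Leaving out each library in turn gave 6 to 7 members called for MI in PKM2fl/fl, 0 to 1 between genotypes after MI and 1 to 4 for sham against baseline. Over all genes it gave 0 to 40, 0 to 89 and 11 to 2271 between genotypes at baseline, after sham surgery and after MI, 0 to 484 for the difference between responses and 688 to 1798 for sham against baseline, the 2271 being without PKM2fl/fl MI replicate 3. The value of Acvr2a for MI in PKM2-/- hearts ranged from -0.0093 to 0.11, and that of Fst between genotypes from -1.10 to 0.34 at baseline and from -0.079 to 0.60 after sham surgery. Depth limits Fst, Gdf15 and Mstn, which rest on few reads in sham and baseline libraries.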

Other observations

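The summed levels of the other cell marker lists moved in both directions after MI. The mean summed level after MI, as a multiple of that after sham surgery in PKM2fl/fl and then PKM2-/- hearts, was 1.96 and 3.59 for neutrophil markers, 1.61 and 1.64 for lymphocyte markers, 1.12 and 1.06 for endothelial markers and 0.713 and 0.560 for pericyte and smooth muscle markers. It was 1.73 and 1.23 for epicardial and mesothelial markers (Wt1, Upk3b, Msln and Upk1b). That sum was mostly Wt1, whose means went from 200 to 301 and from 396 to 317 normalized counts. Of the 4 markers none was called in PKM2fl/fl hearts and 3 were called higher in PKM2-/- hearts. Their median log2 fold changes were 0.66 and 2.87. For erythroid markers the multiple was 1.18 and 1.76. Sums of 3 other lists were carried by 1 or 2 genes that the ventricle also expresses. The atrial sum, at 1.93 and 2.02, was mostly Nppa, while the means of Sln went from 135.8 to 66.7 and from 110.6 to 64.1 normalized counts. The skeletal muscle sum, at 0.436 and 0.248, was mostly Ckm and Acta1. The adipocyte sum, at 0.712 and 0.815, was mostly Fabp4, while the means of Adipoq went from 6.36 to 11.3 and from 6.06 to 20.7. The genotypes were not tested against each other on these sums.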
